A study of Mus musculus with 9 samples.

Results

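Opposite-strand transcripts are RNAs read from the strand opposite to a known gene, and mouse nomenclature names them after that gene with the ending os. Those measured here were the transcripts whose symbol ends in os, or in os and a number, and whose RefSeq accession or RIKEN clone stands in a probe's name, with Hnf4aos and Igf2os left out. The arrays held 86 of them, read by 93 probes, among 5398 named genes and 97836 probes. Of these transcripts, 50 were well above background on at least 3 of 9 arrays and were tested. The others are accounted for under detection.

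Many mammalian loci are transcribed on both strands. An opposite-strand RNA can overlap the coding gene or start at the same promoter and run away from it, and it can act on its neighbour in cis, act elsewhere, or have no known effect. Some, such as the imprinted antisense RNAs Airn and Kcnq1ot1, silence genes around them, while most have no known function. Levels of such RNAs are usually low and differ between tissues.

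The RNA came from livers of male C57BL/6J mice, an inbred strain, aged 20 weeks. Control mice ate normal chow for 17 weeks. A further group ate a diet with 45% of its energy from fat for the same time and received saline by gavage in the last 5 weeks, and the metformin group ate that diet and received 3 mg/kg/day of metformin, a glucose-lowering drug, by gavage over those weeks. Gavage is given in the labels for both fat-fed groups and not for the controls. Each of the 3 groups had 3 arrays and each array 1 pool of livers from 4 mice, so the spread given is between pools, not between single animals. None of the 10 hepatocyte genes listed as markers, nor any of the 52 marker genes listed for liver and other cells, had a probe that could be named, so the tissue label could not be checked with them. In bulk liver, fewer cells of a type and less RNA per cell cannot be told apart.

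Each array had 175906 spots outside the controls, of which 53.0% to 63.5% were well above background, and no spot was saturated. The 3 control pools and high fat diet pool 1 were on slide 1, high fat diet pools 2 and 3 with metformin pools 1 and 2 on slide 2, and metformin pool 3 alone on slide 3. No slide held both controls and metformin pools. All 3 comparisons share pools with each other. Levels are log2 signal with the 75th percentile of the array set to 0, and levels of different probes cannot be set against each other.

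The genomic settings of these transcripts differed. As examples, 4 promoter windows are shown here, each from 250 bases before to 50 bases after the start site. In RefSeq (GRCm38.p6), 63 of the 86 transcripts overlapped the gene they are named after, 38 of them among the 50 tested. The other 23, 12 of them tested, did not overlap it, and their distance from it was not measured. Where the strand of both was listed, which held for 28 tested pairs, the strands were opposite in all 28. The windows of Mkln1os (chr6:31398724-31399023, minus strand) and Appbp2os (chr11:85234916-85235215, plus strand) overlap the promoter window of the gene on the other strand. Mkln1 encodes muskelin, a subunit of a ubiquitin ligase complex, and Appbp2 a protein that binds the amyloid precursor protein. Bach2os (chr4:32571613-32571912, minus strand) and Pitpnm2os1 (chr5:124229475-124229774, plus strand) start away from the promoter window of the gene they oppose. Capitals mark each CG dinucleotide, and sequences run 5′ to 3′.
Mkln1os: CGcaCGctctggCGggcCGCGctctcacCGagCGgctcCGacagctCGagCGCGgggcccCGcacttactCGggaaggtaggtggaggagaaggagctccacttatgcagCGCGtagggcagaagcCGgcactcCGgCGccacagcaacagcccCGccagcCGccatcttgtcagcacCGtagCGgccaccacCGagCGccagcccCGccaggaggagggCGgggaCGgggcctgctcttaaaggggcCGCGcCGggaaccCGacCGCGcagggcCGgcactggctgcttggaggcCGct
Appbp2os: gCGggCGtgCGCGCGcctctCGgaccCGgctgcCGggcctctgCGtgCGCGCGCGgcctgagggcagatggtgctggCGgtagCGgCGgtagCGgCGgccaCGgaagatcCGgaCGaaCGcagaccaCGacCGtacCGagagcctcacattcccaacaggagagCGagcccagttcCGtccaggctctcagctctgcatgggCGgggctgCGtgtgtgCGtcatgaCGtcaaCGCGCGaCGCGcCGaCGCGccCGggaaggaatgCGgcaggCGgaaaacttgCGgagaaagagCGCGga
Bach2os: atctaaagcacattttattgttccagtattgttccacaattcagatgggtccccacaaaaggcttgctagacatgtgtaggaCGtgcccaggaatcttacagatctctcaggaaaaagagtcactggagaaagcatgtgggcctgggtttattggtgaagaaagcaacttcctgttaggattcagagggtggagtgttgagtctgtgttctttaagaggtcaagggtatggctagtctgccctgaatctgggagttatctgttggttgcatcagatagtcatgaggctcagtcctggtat
Pitpnm2os1: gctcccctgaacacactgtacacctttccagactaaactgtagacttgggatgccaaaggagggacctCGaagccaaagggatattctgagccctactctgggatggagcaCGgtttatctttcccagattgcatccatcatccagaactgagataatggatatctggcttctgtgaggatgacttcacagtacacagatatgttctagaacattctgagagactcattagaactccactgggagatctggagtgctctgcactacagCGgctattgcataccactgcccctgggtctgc

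The Mkln1os window held 35 CG dinucleotides with a GC content of 72.7%, and that of Appbp2os held 45 with 70.3%. By contrast the Bach2os window held 1 CG with a GC content of 45.3%, and the Pitpnm2os1 window held 3 with 49.0%. Windows were read for 37 of the 50 tested transcripts, and not for Speer4cos or Zeb2os. Transcripts on chromosome 18, Gata6os and St8sia3os among them, were left out of this step. CpG-rich windows, taken as an observed over expected CG ratio above 0.6 and a GC content above 50%, numbered 11 of those 37 (29.7%), against 33.9% of 27025 genes. These 11 belonged to Appbp2os, Atad3aos, Fam120aos, Hk1os, Ino80dos, Mkln1os, Rab10os, Rbm3os, Rbm46os, Six3os1 and Sox6os. Where a transcript had several windows the first was counted. Another window of Hk1os and of Ino80dos was not CpG-rich (ratios 0.18 and 0.37). Both the transcript's and the opposed gene's windows were listed for 28 tested transcripts, and 4 of these pairs overlapped: Appbp2os, Fam120aos, Lrp8os2 and Mkln1os. Overlap and CG content did not always go together. The Lrp8os2 window held only 5 CG, and the CpG-rich Rab10os window did not overlap that of Rab10. Among the transcripts not tested, 8 of 28 such pairs overlapped.

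Short motifs were counted on both strands in the same windows. The letters TATAAA stood in 4 windows (10.8%, against 14.2% of all windows), and GGGCGG in 11 (29.7% against 35.9%). CCAAT stood in 15 windows (40.5% against 37.9%), Bach2os and Cdrt4os1 among them. The palindrome CACGTG stood in 6 windows, those of Dmrta2os, Lrp8os2, Plekhd1os, Rab10os, Rbm3os and Tomm6os, which is 16.2% against 7.24% of all windows. These are matches of letters and not binding sites.

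Detection divided the transcripts. Of the 86, 36 were well above background on all 9 arrays, 14 on 3 to 8, 5 on 1 or 2, and 31 on none. Per array, the number above background was 47, 44 and 51 in control pools 1 to 3, 47, 45 and 45 in high fat diet pools 1 to 3, and 49, 38 and 44 in metformin pools 1 to 3. The ranges of the 3 groups overlapped. The share tested, 58.1%, lay between the 63.4% of all probes and the 45.5% of 5173 probes named as noncoding genes. RefSeq classed 83 of the 86 as lncRNA, Emx2os as antisense RNA, Speer4cos as a transcribed pseudogene and Cdiptos as protein coding.

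**Figure D1:**
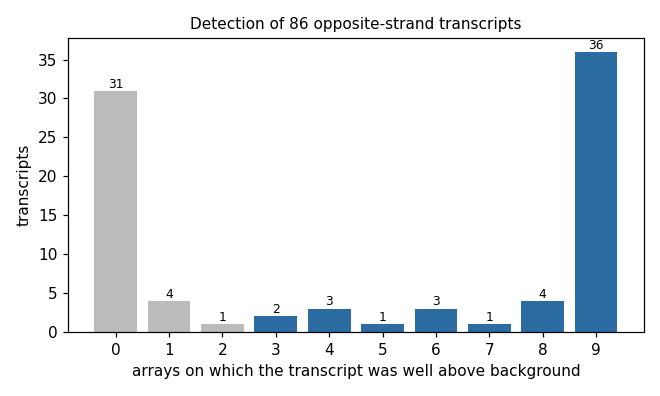
Number of opposite-strand transcripts (vertical axis) by the number of arrays, 0 to 9, on which the transcript's best probe was well above background (horizontal axis), with tested transcripts in blue. Most transcripts lie at an end of the scale, with 31 on no array and 36 on all 9.

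By the role of the opposed gene, as grouped below, 5 of 21 transcripts opposite transcription factors were above background on no array. For genes of neurons and the cell surface this held for 7 of 15, and over all transcripts for 31 of 86. Not every neuronal or surface gene listed next is in that role group. Above background on no array were Foxl2os, Gata5os, Hopxos and Tbx3os2, which oppose transcriptional regulators of ovary, endoderm and heart, and Zfp85os, which opposes a zinc finger gene. Cdr1os, Gad1os, Grip1os2, Nell1os, Pcsk2os1, Ppp2r2cos, Tmem132cos and Tspan2os oppose genes of neurons, glia or the cell surface and were also on no array. So were Has2os, Mccc1os, Ptgs2os, Rptoros and Slc36a1os, opposite genes of hyaluronan, leucine breakdown, prostaglandin synthesis, nutrient signalling and amino acid transport. The rest of this set were Arhgap27os3, Arl4aos, Atxn7l1os2, Cep83os, Fhad1os2, Frmpd1os, Med9os, Rab11fip4os1, Rbfaos, Saxo1os, Smc2os, Tvp23bos and Ube2uos. Dlx6os2, Grip1os1, Runx2os3 and Usp46os1 were above background on 1 array each and Prkag2os1 on 2. A probe not well above background gives no more than an upper bound on the RNA.

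For 6 transcripts several probes allowed a check of 1 probe against another. The clone probe of Hk1os was above background on 9 arrays and its accession probe on 2. For St8sia3os, the clone probe was above background on 9 arrays and the accession probe on 1. Kcnd3os showed the reverse, with its accession probe above on 9 arrays and its clone probe on 0. The probes of these loci differed in detection, and each value below is that of the brightest tested probe. Gata6os, Nr6a1os and Rbm46os had 2, 3 and 2 probes, all above background on 9 arrays.

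The spread over the 9 pools differed between transcripts. Among the 36 above background on every array, the gap between the highest and the lowest pool had a median of 0.65 on the log2 scale and ran from 0.36 (Alkbh3os1) to 1.58 (Lrp8os2). Alkbh3os1 opposes a demethylase of alkylated nucleic acids, and Lrp8os2 a receptor of the LDL receptor family. Rab10os, opposite a small GTPase of vesicle transport, varied by 0.38 and Mkln1os by 0.49. The widest gaps were in transcripts near background: 3.23 for Speer4cos, above background on 6 arrays, 2.82 for Zeb2os on 3 arrays and 2.17 for Dmrta2os on 3 arrays.

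**Figure D2:**
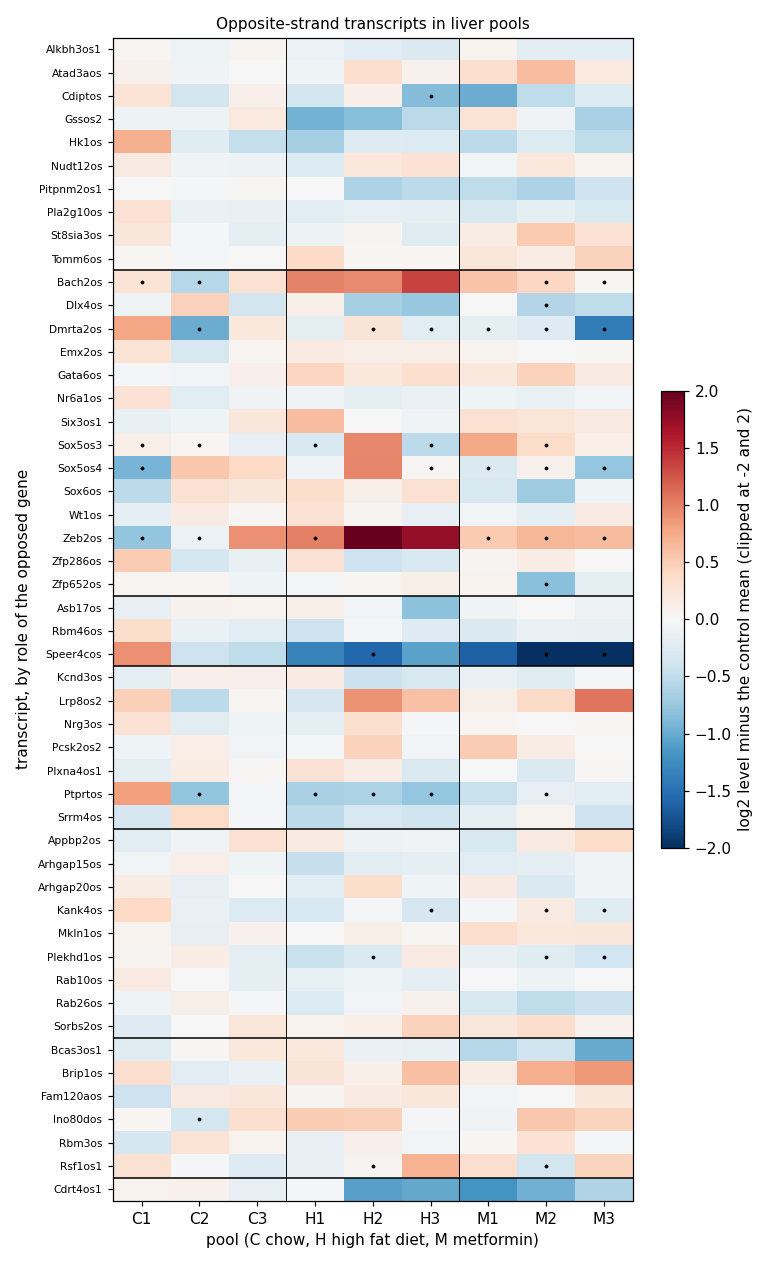
Log2 level of each of the 50 tested transcripts (rows, grouped by the role of the opposed gene) in each of 9 pools (columns: C chow, H high fat diet, M metformin), minus that transcript's control mean, in colour. Black dots mark arrays not well above background, which gather in the widest-ranging rows such as Zeb2os and Dmrta2os.

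High fat diet against chow sets diet and saline gavage together against control, with some fat-fed pools on a slide without controls. No opposite-strand transcript passed the test in it. With limma over all tested probes and Benjamini-Hochberg adjustment at 0.05, 0 of 50 were called, where 28 of 62036 probes (0.0451%) were, and the lowest adjusted p among the 50 was 0.168. At an unadjusted p under 0.05 there were 6 of 50, which is 12% against a background of 12.1%. The pools of the 2 groups did not overlap for 4 transcripts that were higher (8%, background 7.27%) and 5 that were lower (10%, background 8.13%). Bach2os and Zeb2os, among the 4, passed the filter on dim probes mainly or partly through the high fat diet arrays. The median change was -0.01 over the 50 and -0.01 over all tested probes, with 24 positive and 26 negative values from -1.33 to 1.60.

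Metformin against the high fat diet sets drug against saline gavage in fat-fed mice. High fat diet pool 1 and metformin pool 3 were on slides without pools of the other group. Again 0 of 50 were called, where 4 probes (0.00645%) were, and the lowest adjusted p was 0.626. At an unadjusted p under 0.05 there were 7 (14%, background 6.64%), 2 of them higher with metformin and 5 lower. Pools did not overlap for 3 transcripts that were higher (6%, background 8.04%) and 7 that were lower (14%, background 8.15%). Bach2os and Zeb2os, among the 7, passed the filter on dim probes mainly or partly through the high fat diet arrays. That filter favours a fall from the high fat diet, so these counts do not show a direction of the transcripts. The median change was 0.01 over the 50 and 0.01 over all tested probes, with a range from -0.99 to 0.63.

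In metformin against chow, which sets diet, gavage and drug together against control, 1 of 50 was called, Speer4cos, where 339 probes (0.546%) were. At an unadjusted p under 0.05 there were 7 (14%, background 19.1%), 2 higher and 5 lower. Pools did not overlap for 5 that were higher (10%, background 12.5%) and 6 that were lower (12%, background 12.5%). The median was -0.05 against -0.01 over all tested probes, with 22 positive and 28 negative values from -2.05 to 0.61.

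**Figure D3:**
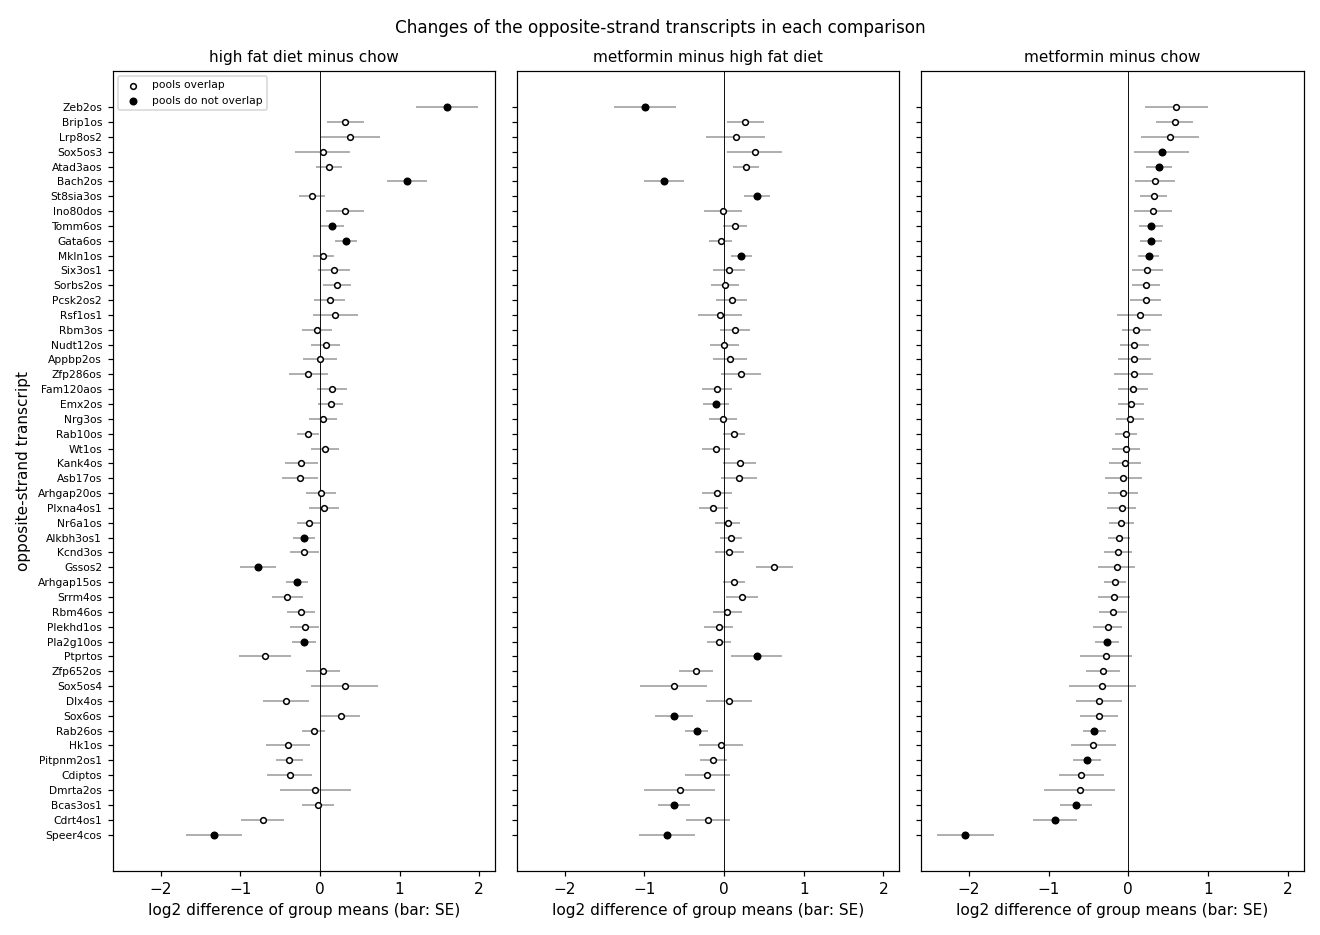
Log2 difference of group means with its SE (horizontal axis) for each of the 50 transcripts (rows, in the order of their metformin minus chow value) in the 3 comparisons. Filled points mark pools that do not overlap, and most values lie close to 0, with Speer4cos at -2.05 and Zeb2os at 1.60 as the ends of the range.

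Of the 4 transcripts opposite genes linked to germ cells, 3 were tested and the fourth, Saxo1os, was on no array. Speer4cos opposes a member of the Speer family, glutamate-rich proteins of spermatogenesis whose genes lie in many near-identical copies, so the probe may also bind RNA of other copies. Its level was -0.78, -2.11 and -2.21 in control pools 1 to 3. It was -3.04, -3.27 and -2.78 in the high fat diet pools and -3.34, -4.01 and -3.89 in the metformin pools. Every control pool lay above every fat-fed pool, and control pool 1 stood well above the other controls. The means were -1.70 ± 0.80, -3.03 ± 0.25 and -3.75 ± 0.36 (SD, n = 3 pools each), and the probe was above background on 3, 2 and 1 arrays of the 3 groups.

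Speer4cos was lower by 2.05 (SE 0.36) on the log2 scale with metformin than with chow, with an adjusted p of 0.0467. With 1 of 3 metformin arrays above background, the size of this difference is not well measured. Between chow and high fat diet the change was -1.33 (SE 0.36, adjusted p = 0.203), and between high fat diet and metformin -0.72 (SE 0.36, adjusted p = 0.782). On slide 1, high fat diet pool 1 differed from the control mean by -1.34, and on slide 2 the metformin pools differed from the high fat diet pools by -0.65. Without control pool 1 the chow to metformin change was -1.59 with an adjusted p of 0.026. The call was lost without control pool 2 (adjusted p = 0.102), control pool 3 (0.0642), high fat diet pool 2 (0.0609), or metformin pool 1 (0.0736), 2 (0.124) or 3 (0.167). With slide as a block the change was -1.98 and the adjusted p 1.00, in a fit where no slide held both groups. That p is not particular to Speer4cos. The highest adjusted p over the alternatives was the same for Bcas3os1, Cdrt4os1, Gata6os and Pitpnm2os1 in this comparison. With normexp background correction the change was -0.62 and the adjusted p 0.104.

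Rbm46os is named after Rbm46, an RNA-binding protein needed in germ cells, but in RefSeq it overlaps Lrat, the lecithin retinol acyltransferase that makes retinyl esters in hepatic stellate cells. Its levels were 1.94, 1.45 and 1.38 in controls, 1.18, 1.55 and 1.34 with high fat diet, and 1.29, 1.45 and 1.45 with metformin. The groups overlapped. The high fat diet value was -0.23 (SE 0.18, adjusted p = 0.680) from control, and its second probe gave 0.06 (adjusted p = 0.941). Asb17os, opposite a testis-expressed ubiquitin ligase adaptor gene, ranged from -2.36 to -1.41 over the 9 pools.

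Transcription factors were opposed by 14 of the tested transcripts, of 21 on the arrays, and none of the 14 was called in any comparison. For 3 of the 14, Bach2os, Gata6os and Zeb2os, all high fat diet pools lay above all chow pools, as for 7.27% of all tested probes. For 4, Bach2os, Emx2os, Sox6os and Zeb2os, all metformin pools lay below all high fat diet pools, as for 8.15% of all tested probes. Bach2os and Zeb2os, in both counts, passed the filter on dim probes mainly or partly through the high fat diet arrays, so these counts do not show a direction of the group. Of the developmental factors on a list of 40 genes, 10 transcripts were tested, with 8 positive and 2 negative values for high fat diet minus chow and a median of 0.16. Over all tested probes, 48.2% of the values were positive and the median was -0.01. For metformin minus high fat diet the list had 4 positive and 6 negative values and a median of -0.07, where 51.3% of all tested probes were positive with a median of 0.01. The list's split was not tested. Among its 10 transcripts are Zeb2os, which passed the filter partly through the high fat diet arrays, and Nr6a1os, whose probes disagreed in sign.

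Bach2os opposes Bach2, a transcription repressor known from lymphocytes. Its level was -3.01, -3.85 and -2.98 in controls, -2.29, -2.34 and -1.93 with high fat diet, and -2.72, -2.87 and -3.25 with metformin. The high fat diet pools were the highest 3 of the 9. Above background were 1 control array, all 3 high fat diet arrays and 1 metformin array, so most values outside the high fat diet lay near background. The difference was 1.09 (SE 0.25, adjusted p = 0.168) for high fat diet minus chow, and with normexp correction it was 0.37 (adjusted p = 0.161). The probe reached the 3 arrays needed for testing only with the high fat diet arrays counted, so its place among the 50 is partly set by that filter. For metformin minus high fat diet it was -0.76 (SE 0.25, adjusted p = 0.647). The high fat diet minus chow difference within slide 1 was 0.99, and the metformin minus high fat diet difference within slide 2 was -0.66.

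Zeb2os opposes Zeb2, a zinc finger repressor that governs epithelial to mesenchymal change and the identity of liver macrophages. Its level was -5.00, -4.33 and -3.30 in controls, -3.20, -2.19 and -2.46 with high fat diet, and -3.70, -3.55 and -3.58 with metformin. Above background were control pool 3 and high fat diet pools 2 and 3 alone, and all high fat diet pools exceeded all others. The fitted difference was 1.60 (SE 0.39, adjusted p = 0.183) for high fat diet minus chow. It ran from 1.20 without control pool 1 to 2.05 without control pool 3, and was 0.41 with normexp correction and 1.01 with slide as a block. For metformin minus high fat diet the fit gave -0.99 (SE 0.39, adjusted p = 0.705), and -0.18 with normexp correction. With 1 control, 2 high fat diet and 0 metformin arrays above background, the sizes of these differences are not well measured. Zeb2 itself, read through a RIKEN clone probe that may not be its main mRNA, differed by 0.18 (SE 0.23, adjusted p = 0.843) between high fat diet and chow.

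Sox6os opposes Sox6, a factor of red cell, cartilage and muscle development. Its level was -0.43, 0.41 and 0.32 in controls, 0.45, 0.22 and 0.41 with high fat diet, and -0.22, -0.61 and 0.02 with metformin. Every metformin pool lay below every high fat diet pool, while control pool 1 lay among the metformin pools. The metformin minus high fat diet difference was -0.63 (SE 0.24, adjusted p = 0.697), and on slide 2 alone it was -0.73.

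Gata6os opposes Gata6, an endoderm factor of liver development. Its level was 0.05, 0.04 and 0.19 in controls, 0.53, 0.30 and 0.43 with high fat diet, and 0.30, 0.56 and 0.28 with metformin. All fat-fed pools lay above all control pools. The difference from chow was 0.33 (SE 0.14, adjusted p = 0.388) with high fat diet and 0.29 (SE 0.14, adjusted p = 0.302) with metformin. Its second probe gave 0.15 (adjusted p = 0.816) for high fat diet, with pools that overlapped.

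Emx2os opposes a homeobox factor of the urogenital tract and forebrain. It stood at 0.66, 0.07 and 0.43 in controls, 0.54, 0.52 and 0.50 with high fat diet, and 0.46, 0.39 and 0.41 with metformin. The fat-fed groups each spread by an SD of at most 0.04, and the controls by 0.30 and on both sides of them. The metformin minus high fat diet difference was -0.10 (SE 0.16, adjusted p = 0.947).

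Six3os1, opposite the eye and forebrain factor Six3, measured 0.24, 0.31 and 0.62 in controls, 1.01, 0.38 and 0.32 with high fat diet, and 0.70, 0.64 and 0.56 with metformin. High fat diet pool 1 was its highest pool, and the groups overlapped. The metformin minus chow difference was 0.24 (SE 0.20, adjusted p = 0.542). Nr6a1os, opposite the germ cell nuclear factor, measured 0.04, -0.49 and -0.32 in controls, -0.32, -0.46 and -0.39 with high fat diet, and -0.34, -0.38 and -0.30 with metformin. Its 3 probes gave -0.14, -0.13 and 0.56 for high fat diet minus chow (adjusted p = 0.819, 0.844 and 0.399), so the probes disagreed in sign.

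Wt1os, named after the Wilms tumour gene Wt1 of mesothelium and stellate cells, measured -2.11, -1.76 and -1.88 in controls, -1.61, -1.86 and -2.09 with high fat diet, and -1.97, -2.12 and -1.76 with metformin. These groups overlapped throughout, with a metformin minus high fat diet value of -0.10 (SE 0.17, adjusted p = 0.954). Dlx4os, opposite a homeobox gene, measured -2.09, -1.54 and -2.37 in controls, -1.88, -2.66 and -2.75 with high fat diet, and -2.01, -2.58 and -2.51 with metformin. The high fat diet minus chow difference of Dlx4os was -0.43 (SE 0.29, adjusted p = 0.619), and with slide as a block it was 0.12.

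Both transcripts opposite Sox5, a partner of Sox6 in cartilage formation, were above background on 4 of 9 arrays. Sox5os3 measured -2.76, -2.83 and -3.03 in controls, -3.19, -1.91 and -3.40 with high fat diet, and -2.11, -2.51 and -2.74 with metformin. All metformin pools of Sox5os3 lay above all controls, by 0.42 on average (SE 0.34, adjusted p = 0.540). Sox5os4 measured -4.18, -2.71 and -2.86 in controls, -3.31, -2.27 and -3.23 with high fat diet, and -3.53, -3.16 and -4.02 with metformin. Above background were 2 control, 2 high fat diet and 0 metformin arrays of Sox5os4. The fit gave -0.63 (SE 0.42, adjusted p = 0.840) for metformin minus high fat diet, and -0.066 with normexp correction. Dmrta2os, Zfp286os and Zfp652os, opposite a doublesex-related factor and a pair of zinc finger genes, had adjusted p of 0.448 to 0.985 over the 3 comparisons. For Dmrta2os, 2 control, 1 high fat diet and 0 metformin arrays were above background.

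**Figure D4:**
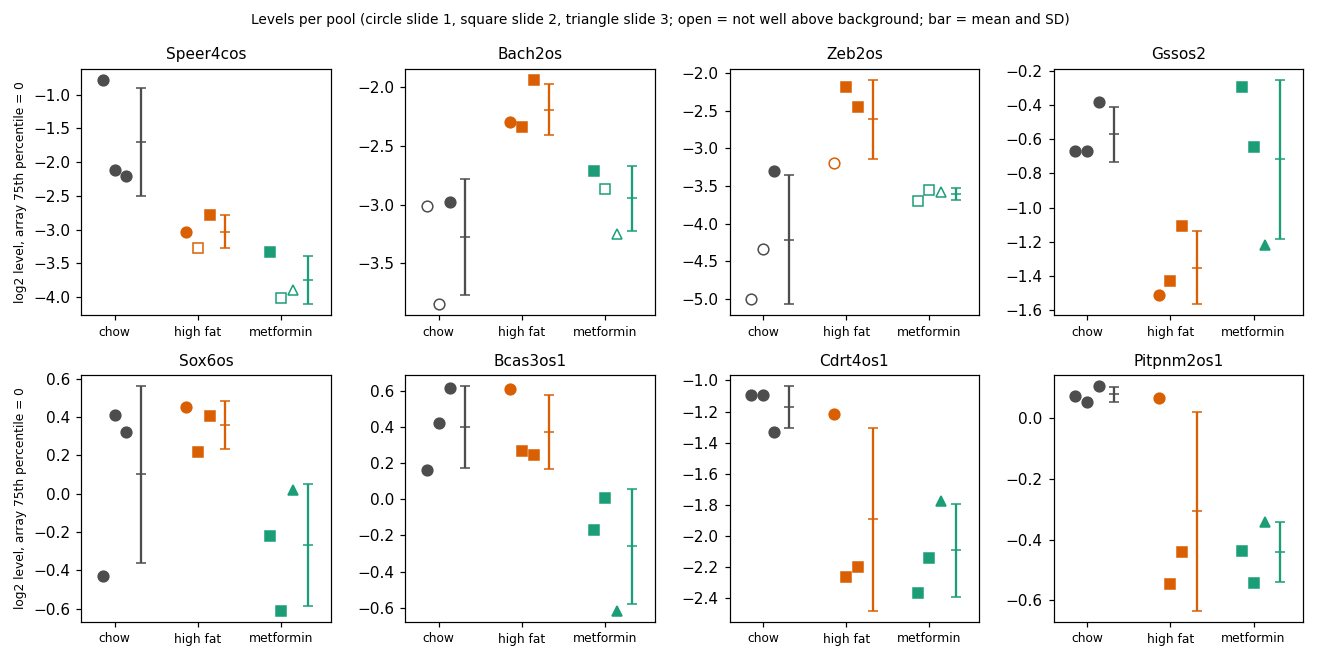
Log2 level (vertical axis, array 75th percentile set to 0) of 8 transcripts in each pool, by group, with the group mean and SD beside the points. Shapes give the slide and open symbols mark arrays not well above background. In Cdrt4os1 and Pitpnm2os1 the 4 pools of slide 1 lie above the other 5.

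Genes of metabolism and mitochondria were opposed by 10 tested transcripts of 17 on the arrays, and none was called. Alkbh3os1 is counted in this group, although its gene encodes a demethylase of alkylated nucleic acids. Gssos2 was the one tested transcript opposite a gene of the liver metabolism list. Gss encodes glutathione synthetase, which makes the antioxidant glutathione from its dipeptide precursor. The level of Gssos2 was -0.67, -0.67 and -0.38 in controls, -1.51, -1.43 and -1.11 with high fat diet, and -0.29, -0.64 and -1.22 with metformin. All high fat diet pools lay below all controls, while the metformin pools spread from above the controls to within the high fat diet range. Its means were -0.57 ± 0.16, -1.35 ± 0.21 and -0.72 ± 0.47 (SD, n = 3 pools each).

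For Gssos2 the high fat diet minus chow difference was -0.78 (SE 0.23, adjusted p = 0.229). The metformin minus high fat diet difference was 0.63 (SE 0.23, adjusted p = 0.676). Within slide 1 the former was -0.94, with 1 high fat diet pool, and within slide 2 the latter was 0.80. Metformin pool 3, alone on slide 3, was the lowest of its group. The sign of both differences was the same in all 20 alternative analyses, and neither passed the test in any of them.

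Pitpnm2os1 opposes Pitpnm2, a phosphatidylinositol transfer protein gene, and followed the slides. Its level was 0.07, 0.05, 0.10 and 0.06 on the 4 arrays of slide 1, which held the controls and high fat diet pool 1. On the other slides it was -0.55 and -0.44 with high fat diet and -0.44, -0.54 and -0.34 with metformin. Metformin minus chow was -0.52 (SE 0.17, adjusted p = 0.155), and -0.0074 with slide as a block. No slide held both of these groups. High fat diet minus chow within slide 1 was -0.01, and metformin minus high fat diet within slide 2 was 0.00. Cdrt4os1, opposite Cdrt4, showed the same layout, with -1.09, -1.09, -1.33 and -1.21 on slide 1. It stood at -2.26 and -2.20 in high fat diet pools 2 and 3 and at -2.36, -2.14 and -1.77 with metformin. Metformin minus chow was -0.92 for Cdrt4os1 (SE 0.27, adjusted p = 0.127), and -0.062 with slide as a block. High fat diet minus chow within slide 1 was -0.04 and metformin minus high fat diet within slide 2 was -0.02.

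Slide 1 stood wholly above or below the other slides for 3 of the 50 transcripts: Pitpnm2os1 and Cdrt4os1 were higher on it and Atad3aos lower. Over all tested probes this held for 6.75%, with 2643 higher and 1547 lower on slide 1. Atad3aos, named after a gene of the mitochondrial inner membrane, had means of -1.10 with chow, -0.99 with high fat diet and -0.72 with metformin. Its metformin minus chow value was 0.38 (adjusted p = 0.244), and no slide held both groups.

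None of the other transcripts in the metabolism and mitochondria group passed the test either. Pla2g10os, opposite a secreted phospholipase A2, and Alkbh3os1 had high fat diet pools that all lay below the controls, with a difference of -0.20 each on the log2 scale (adjusted p = 0.674 and 0.627). Tomm6os, opposite a subunit of the mitochondrial outer membrane translocase, had high fat diet pools that all lay above the controls, with a difference of 0.15 (adjusted p = 0.768). St8sia3os, opposite a sialyltransferase gene, had means of -1.22, -1.32 and -0.90 with chow, high fat diet and metformin. Its metformin pools all lay above the high fat diet pools, by 0.41 (SE 0.16, adjusted p = 0.712). Hk1os, opposite hexokinase 1, ranged from -2.83 to -1.45, with control pool 1 the highest. Nudt12os, opposite a nucleotide hydrolase, and Cdiptos, named after the phosphatidylinositol synthase gene, had groups that overlapped in every comparison.

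Genes of chromatin, RNA and DNA repair were opposed by 6 tested transcripts of 10. Bcas3os1 opposes Bcas3, a gene of cytoskeleton and autophagy regulation that is also a nuclear receptor coactivator. Its level was 0.16, 0.42 and 0.61 in controls, 0.61, 0.27 and 0.24 with high fat diet, and -0.17, 0.00 and -0.62 with metformin. All metformin pools lay below all 6 other pools. The difference was -0.63 (SE 0.20, adjusted p = 0.626) from high fat diet, the lowest adjusted p of the 50 in that comparison, and -0.66 (SE 0.20, adjusted p = 0.133) from chow. With slide as a block the latter was -0.13, and within slide 2 the metformin minus high fat diet difference was -0.34.

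Brip1os is named after a DNA repair helicase gene but overlaps Ints2 and Med13 in RefSeq, genes of the Integrator and Mediator complexes. Its means were -0.30 ± 0.30, 0.02 ± 0.25 and 0.28 ± 0.38 (SD, n = 3 pools each) with chow, high fat diet and metformin. The pools overlapped, and metformin minus chow was 0.59 (SE 0.23, adjusted p = 0.214). Ino80dos, which overlaps Ndufs1 of respiratory complex I, Fam120aos, Rbm3os and Rsf1os1 had groups that overlapped in all 3 comparisons. Rbm3 encodes a cold-inducible RNA-binding protein and Rsf1 a chromatin remodelling subunit.

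Cytoskeleton, small GTPase and transport genes were opposed by 9 tested transcripts of 15. Rab26os, named after a GTPase of secretory granules, measured -0.12, 0.09 and -0.07 in controls, -0.31, -0.08 and 0.05 with high fat diet, and -0.36, -0.55 and -0.47 with metformin. All metformin pools of Rab26os lay below the other 6, with a difference of -0.35 (adjusted p = 0.729) from high fat diet and -0.43 (adjusted p = 0.160) from chow. On slide 2 alone the former was -0.44. Mkln1os, whose promoter window is shown above, measured -1.54, -1.77 and -1.52 in controls, -1.62, -1.49 and -1.59 with high fat diet, and -1.28, -1.39 and -1.38 with metformin. Its metformin pools lay above the other 6, by 0.22 (SE 0.13, adjusted p = 0.823) from high fat diet and 0.26 (SE 0.13, adjusted p = 0.317) from chow. Mkln1, read through a RIKEN clone probe, differed by 0.01 (SE 0.15, adjusted p = 0.996) between metformin and high fat diet.

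Arhgap15os, opposite a Rac GTPase-activating protein gene, had all its high fat diet pools below the control range, with a difference of -0.29 (SE 0.14, adjusted p = 0.442). Appbp2os, Arhgap20os, Kank4os, Plekhd1os, Rab10os and Sorbs2os had groups that overlapped in each comparison. Sorbs2 encodes an adaptor of actin and focal adhesions and Kank4 a regulator of the actin cytoskeleton.

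Neuronal and cell surface genes were opposed by 7 tested transcripts of 15, and these had adjusted p of 0.445 or above in all 3 comparisons. Ptprtos, opposite a receptor tyrosine phosphatase gene, measured -1.93, -3.54 and -2.78 in controls, -3.40, -3.38 and -3.53 with high fat diet, and -3.19, -2.91 and -2.98 with metformin. Above background were 2 control, 0 high fat diet and 2 metformin arrays. The fit gave -0.69 (SE 0.32, adjusted p = 0.445) for high fat diet minus chow and 0.41 (SE 0.32, adjusted p = 0.869) for metformin minus high fat diet. Control pool 2 lay at the level of the high fat diet pools. Kcnd3os, Lrp8os2, Nrg3os, Pcsk2os2, Plxna4os1 and Srrm4os, opposite genes of a potassium channel, a lipoprotein receptor, a neuregulin, a prohormone convertase, a semaphorin receptor and a neuronal splicing factor, had overlapping groups throughout.

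Few opposed genes could be set beside their opposite-strand transcript. The 86 transcripts are named after 83 genes, of which 6 had a named probe and 4 a tested one, and none of these 4 was called. Beside Zeb2 and Mkln1 these were Wt1 and Cep83. Wt1 differed by -0.47 (SE 0.43, adjusted p = 0.743) between high fat diet and chow. Cep83, a centriole gene whose own opposite-strand transcript was on no array, differed by 0.16 (SE 0.21, adjusted p = 0.844). Of antisense transcripts named in other ways, Airn and Kcnq1ot1 were tested and 0 of these 2 were called.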

How the data were processed

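Per the labels, Cy3-labelled liver RNA of 9 pools was hybridised to single-colour Agilent arrays. Per the file headers, the authors extracted spots with Feature Extraction 11.5.1.1 (10.7 per the submitters' processing notes), and the deposited processed signal is a background-subtracted intensity. Spot flags are other values in the deposited files. The deposited table holds log2 values that equalled those computed here within 0.01 after a constant per array. Control and outlier spots (73 to 192 per array) were removed, log2 signals averaged per probe and each array's 75th percentile subtracted. A probe with at least 0.5 of its spots above background on at least 3 of 9 arrays and a value on all was tested (62036). The fit used limma (version 3.58.1, under R 4.3.3), with lmFit and eBayes, 1 mean per group (6 residual and 3.75 prior degrees of freedom). It was tested on simulated data and used Benjamini-Hochberg adjustment over all tested probes at 0.05. A group comparison has 3 pools a side, and the number of arrays limits precision. Pools are separate samples per the labels. The p-values set the difference of group means against the spread between pools, moderated over all tested probes.

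Names came from accessions (4658 probes) or RIKEN clones (1209) through RefSeq (GRCm38.p6). The opposed gene was read from the symbol, whether or not the transcript overlaps it. The file headers name mm9, so no coordinates are given except those of RefSeq promoter windows. Full values are given for transcripts called, for the 4 with the smallest p in each comparison and for those opposite genes of 3 lists (liver metabolism, developmental transcription factors, germ cells); others with an unadjusted p under 0.05 or groups that did not overlap were named after their values were seen, and role groups were set likewise. Members and lists were chosen with earlier results of these data known. The files hold no mean signal, so the normexp alternative used median signals (offset 50).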

Additional observations from a re-analysis of the deposited data

How the results depend on the processing

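The number of transcripts called for metformin against chow was 1. It was 0 with normexp correction, with no filter on dim probes, with slide as a block, with the replicate block and with only the 6 arrays compared. It was also 0 with probes above background on all 9 arrays, but that set leaves out Speer4cos by its rule. The count there says nothing about the call of Speer4cos. Leaving out 1 pool at a time gave 0 to 1. In the other comparisons it was 0 under every alternative run. The median change for metformin against chow was 0.052 with no filter on dim probes. That median is over a larger set, which also held transcripts not above background on 3 arrays. Signs turned for Dlx4os (high fat diet minus chow 0.12 with slide as a block), Nr6a1os (0.098 as the mean over its probes and 0.012 without control replicate 1), Emx2os (-0.023 without control replicate 2) and Wt1os (metformin minus high fat diet 0.014 with normexp and 0.024 without high fat diet replicate 1). With 1 pool left out at a time, Emx2os ran from -0.023 to 0.27, Nr6a1os from -0.25 to 0.012 and Wt1os from -0.22 to 0.024. The cause was not tested. Same-numbered pools correlated between -0.094 and 0.128 in their deviations from group means, and others between -0.143 and 0.101, so the numbers were not taken as pairs. With the replicate block 79 probes were called for metformin against chow, where 339 were without it, and Speer4cos had an adjusted p of 0.0542. The number of transcripts above background was 36 when all 9 arrays were asked for and 44 for at least 6, and leaving out 1 pool gave 48 to 50. Dim signals limit Zeb2os, Bach2os, Ptprtos, Sox5os3, Sox5os4 and Dmrta2os, which were above background on 3 to 5 arrays. They also limit Speer4cos, above background on 6 arrays but on only 1 of 3 with metformin.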
